A study of Mus musculus with 16 samples.

Results

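Of 73648 chromatin regions open in at least 1 of 4 cultured libraries of mouse CD8+ T cells, 2448 (3.32%) carried a peak in both LC3-GFP(neg) libraries and in neither LC3-GFP(pos) library. They were chosen by the authors' ATAC-seq peaks themselves: peaks of the 4 libraries that shared at least 1 bp were merged, and the presence or absence of a peak in each library decided membership. These 2448 are called negative-only regions here. The counterpart, with a peak in both LC3-GFP(pos) libraries and neither LC3-GFP(neg) library, held 5911 positive-only regions, and 39655 regions had a peak in all 4 libraries. The remaining 25634 had another pattern, which for 3675 of them was a peak in both LC3-GFP(neg) libraries and in 1 LC3-GFP(pos) library.

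The cells came from Pmel mice, whose T cell receptor recognises a melanocyte antigen, carrying an LC3-GFP-RFP reporter. T cells purified from them spent 3 days in culture under αCD3 and αCD28 (2 µg/ml of either) plus IL2 (100 IU/ml), were exposed to carbon monoxide (CO) for 24 h, and were then sorted by LC3-GFP signal. All groups shared the reporter, the stimulation and CO; an untreated group was not analysed here. Sorted cells gave 2 RNA and 2 in vitro ATAC-seq libraries per population. In addition, either population was transferred into C57BL/6 mice whose B16-F10 melanoma had grown for 12 days. CD8+ cells positive for Vβ13, sorted from the tumours 15 days later, gave 4 in vivo ATAC-seq libraries per population, 1 per mouse. The labels do not say whether the 2 replicates of a cultured group came from separate animals, so p-values over them reflect the scatter among the libraries at hand, possibly a technical one. The labels give neither the age of the mice nor the promoter that drives the reporter, and name no marker besides Vβ13 that separates transferred cells from the hosts' own CD8+ cells.

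ATAC-seq uses the Tn5 transposase, which cuts DNA where nucleosomes leave it accessible, and a peak is a stretch with more cuts than its surroundings. In T cells, accessible sites at gene starts are mostly shared between states, whereas distal sites, many of them enhancers bound by factors such as AP-1, RUNX, ETS and TCF proteins, differ more with activation and differentiation. LC3 is conjugated to the autophagosome membrane and is degraded with its cargo, so that the GFP signal of a reporter depends on both its production and its turnover.

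Few negative-only regions lay at a gene start, and sequence could be read only there, from the RefSeq windows of 250 bases before to 50 after each start (GRCm38.p6, the assembly that mm10 names). Of 32851 such windows, 70 from 65 genes overlapped a negative-only region. The 5 regions with the highest fold enrichment among those at gene starts are shown by 1 window each, because they are the strongest negative-only regions whose sequence is known. They belong to the uncharacterised gene Gm31904 (chr10:10234829-10235128, minus strand), the beta-defensin gene Defb42 (chr14:63046741-63047040, plus strand), the extracellular matrix gene Fbln1 (chr15:85205758-85206057, plus strand), the uncharacterised gene Gm36617 (chr15:59245957-59246256, plus strand) and the leucine-rich repeat gene Lrrc3b (chr14:15438938-15439237, minus strand). Capitals mark AP-1 (TGANTCA), ETS (GGAAGT), RUNX (TGTGGT) and CRE half-site (TGACGT) letters on either strand.
Gm31904: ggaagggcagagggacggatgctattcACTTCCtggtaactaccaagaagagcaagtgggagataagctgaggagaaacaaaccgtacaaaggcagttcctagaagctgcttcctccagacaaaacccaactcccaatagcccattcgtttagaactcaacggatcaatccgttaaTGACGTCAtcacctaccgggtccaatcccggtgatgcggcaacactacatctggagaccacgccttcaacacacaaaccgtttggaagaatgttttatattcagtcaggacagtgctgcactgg
Defb42: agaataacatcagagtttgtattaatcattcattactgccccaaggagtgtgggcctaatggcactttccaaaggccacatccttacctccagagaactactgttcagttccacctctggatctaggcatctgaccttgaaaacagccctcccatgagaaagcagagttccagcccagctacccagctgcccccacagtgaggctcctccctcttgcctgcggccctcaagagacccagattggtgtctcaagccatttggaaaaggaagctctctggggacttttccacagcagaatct
Fbln1: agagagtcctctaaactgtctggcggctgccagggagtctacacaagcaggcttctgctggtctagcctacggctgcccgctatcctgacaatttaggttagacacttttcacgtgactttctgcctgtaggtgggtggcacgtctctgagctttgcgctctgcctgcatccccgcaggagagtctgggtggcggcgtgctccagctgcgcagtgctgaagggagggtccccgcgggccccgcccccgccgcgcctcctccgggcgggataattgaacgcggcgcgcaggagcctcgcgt
Gm36617: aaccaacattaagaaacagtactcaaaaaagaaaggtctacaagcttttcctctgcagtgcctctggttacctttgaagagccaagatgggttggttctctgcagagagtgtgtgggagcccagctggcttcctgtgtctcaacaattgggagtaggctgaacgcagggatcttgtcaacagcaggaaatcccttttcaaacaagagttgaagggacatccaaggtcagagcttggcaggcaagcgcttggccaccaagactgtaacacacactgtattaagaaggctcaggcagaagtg
Lrrc3b: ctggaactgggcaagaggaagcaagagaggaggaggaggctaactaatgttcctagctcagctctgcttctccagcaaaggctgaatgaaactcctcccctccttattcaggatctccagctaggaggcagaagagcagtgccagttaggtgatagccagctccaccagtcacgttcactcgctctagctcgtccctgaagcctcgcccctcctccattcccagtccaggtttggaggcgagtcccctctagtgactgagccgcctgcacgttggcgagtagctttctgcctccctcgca

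Only the Gm31904 window held any of these letters, with 1 ETS match and 2 overlapping TGACGT matches, 1 on each strand. Fold enrichment, the authors' ratio of a peak to its local background in the same library, was 6.86 and 7.38 at Gm31904 in LC3-GFP(neg) replicates 1 and 2, and 6.37 and 6.44 at Fbln1. None of Defb42, Fbln1, Gm36617 and Lrrc3b had an in vivo peak in its region, while the Gm31904 region had one in 2 of 4 LC3-GFP(neg) and 0 of 4 LC3-GFP(pos) libraries.

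A further pair of windows is printed because the RNA of their genes passed the test described below. One is the start of Dennd2d, which encodes a DENN domain protein, at chr3:106485790-106486089 on the plus strand, head to head with 2010016I18Rik on the minus strand. The other is the start of Cbarp, a regulator of voltage-gated calcium channels, at chr10:80137338-80137637 on the minus strand.
Dennd2d: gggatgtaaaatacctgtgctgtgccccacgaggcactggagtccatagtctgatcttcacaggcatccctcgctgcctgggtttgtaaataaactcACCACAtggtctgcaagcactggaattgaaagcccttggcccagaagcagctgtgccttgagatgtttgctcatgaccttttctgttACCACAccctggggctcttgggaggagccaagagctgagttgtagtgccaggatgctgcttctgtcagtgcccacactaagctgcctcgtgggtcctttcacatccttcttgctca
Cbarp: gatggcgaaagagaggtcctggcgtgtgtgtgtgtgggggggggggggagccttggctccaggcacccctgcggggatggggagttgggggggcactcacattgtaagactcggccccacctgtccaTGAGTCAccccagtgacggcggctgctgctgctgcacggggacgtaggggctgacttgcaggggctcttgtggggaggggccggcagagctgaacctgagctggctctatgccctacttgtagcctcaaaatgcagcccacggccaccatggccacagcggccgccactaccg

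The Dennd2d window held 2 RUNX matches and the Cbarp window 1 AP-1 match. Over the 70 windows, AP-1 letters were in 14.3%, against 7.81% of all 32851 windows, 10.1% of the 179 windows at positive-only regions and 5.14% of the 14000 windows at regions with a peak in all 4 libraries. The AP-1 share of the 70 rested on 10 windows, overlapping windows of Wscd1 among them, and windows at no region had 9.74%. For ETS the shares were 18.6% and 23.8% in the 70 and in all windows, for RUNX 18.6% and 16.8%, and for the CRE half-site 10.0% and 7.51%. The 179 windows at positive-only regions had 34.1% for ETS, 26.8% for RUNX and 3.91% for the CRE half-site. These shares count letters in a 300-base window and say nothing of binding. The 70 windows resembled all windows in base composition, with a median GC content of 53.7% against 52.7% and a median CpG observed-to-expected ratio of 0.374 against 0.384. Windows at regions open in all 4 libraries were richer in both, at 61.7% and 0.766.

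Among 1005 miRNA hairpins of RefSeq, 5 lay inside a negative-only region. Of these Mir142 stands out by what is known of it, since it is abundant in blood cells, and its mature strands are shown with the seed, bases 2 to 8, in capitals, next to those of Mir744.
mmu-miR-142a-5p: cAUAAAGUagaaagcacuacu
mmu-miR-142a-3p: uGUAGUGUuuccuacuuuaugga
mmu-miR-142b: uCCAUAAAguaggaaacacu
mmu-miR-744-5p: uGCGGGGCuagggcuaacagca
mmu-miR-744-3p: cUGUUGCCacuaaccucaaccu

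No seed was shared among these strands, and miR-142b is read from the strand opposite to Mir142. The Mir142 region (chr11:87756346-87757161) was enriched only 1.63-fold and 1.67-fold over its local background, near the lowest values of any negative-only region (1.58 in each library). Its pileups, the authors' height of stacked fragments at the summit, were nevertheless the highest of any negative-only region in each library, at 124 and 97. In vivo it carried a peak in 4 of 4 LC3-GFP(neg) and 2 of 4 LC3-GFP(pos) libraries. The Mir744 region (chr11:65734235-65735902), within Map2k4, had fold enrichments of 3.91 and 3.19 and no in vivo peak.

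In the whole data set, RNA libraries held 14567545 to 17557633 counts and in vitro libraries 49634 to 63761 peaks. In vivo libraries held 27406 to 55171 peaks, and ATAC-seq read depth is unknown from the peak lists. In vivo LC3-GFP(neg) replicate 2 stood apart. It had the most peaks, 28.6% of them lay outside every in vitro region (5.02% to 9.76% in the other 7), and 33.6% of positive-only regions carried one of its peaks (2.83% to 9.61%), so in vivo results are given with and without it. RNA of the T cell genes Cd8a (524 to 618 CPM, counts normalised to the TMM-scaled library size), Cd8b1, Cd3e and Lck was high in all 4 libraries. Of 10 CD8 T cell markers 9 were tested, and 6 were called higher in LC3-GFP(neg) and 0 lower. Of all genes tested, 13.6% were higher and 11.3% lower. Cd8a (log2 difference 0.18), Cd8b1 (0.20) and Cd3e (0.20) were among the 6, and Lck was not. Summed over a list, genes listed as B cell markers were at 4.21 and 5.45 CPM in LC3-GFP(neg) against 12.8 and 12.0 CPM in LC3-GFP(pos) (5 of 7 tested, 4 called lower). Those listed for myeloid cells were at 8.48 and 8.25 against 4.79 and 5.21 (4 of 7 tested, 1 called higher and 1 lower). The NK cell list gave 181 and 188 against 99.8 and 106, from Klrb1c, Eomes and Klrk1 alone (3 of 5 tested, all called higher). Whether RNA of these lists came from such cells or from the T cells themselves was not tested. Pax5, Lyz2, Csf1r, Adgre1, Ncr1 and Klra8 were not listed in the RNA table. A call here is an adjusted p under 0.05 in the RNA test given below. The part of such cells in the results was not tested, and in bulk samples fewer cells of a type cannot be told apart from less RNA or fewer open sites per cell.

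Negative-only regions were weak peaks. The strongest peak in a region had a median −log10 q (the authors' p-value adjusted over peaks, on a scale where higher is stronger) of 7.04 in LC3-GFP(neg) replicate 1 and 5.06 in replicate 2, where the medians over all peaks were 13.5 and 11.6. The median fold enrichment was 3.905 and 3.889, against 4.75 and 5.03 over all peaks, and 27.4% and 16.8% of negative-only regions lay above those medians. Positive-only regions had similar values in LC3-GFP(pos) replicates 1 and 2, with a median −log10 q of 7.38 and 5.34. Their median fold enrichment was 3.79 and 3.82, so weak peaks were not particular to negative-only regions. A −log10 q of at least 5 in both LC3-GFP(neg) libraries was reached by 1071 negative-only regions (43.8%) and one of at least 10 by 122 (4.98%). These values took part in the choice and carry no test. They are set beside regions with a peak in all 4 libraries in the histogram of −log10 q.

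**Figure D1:**
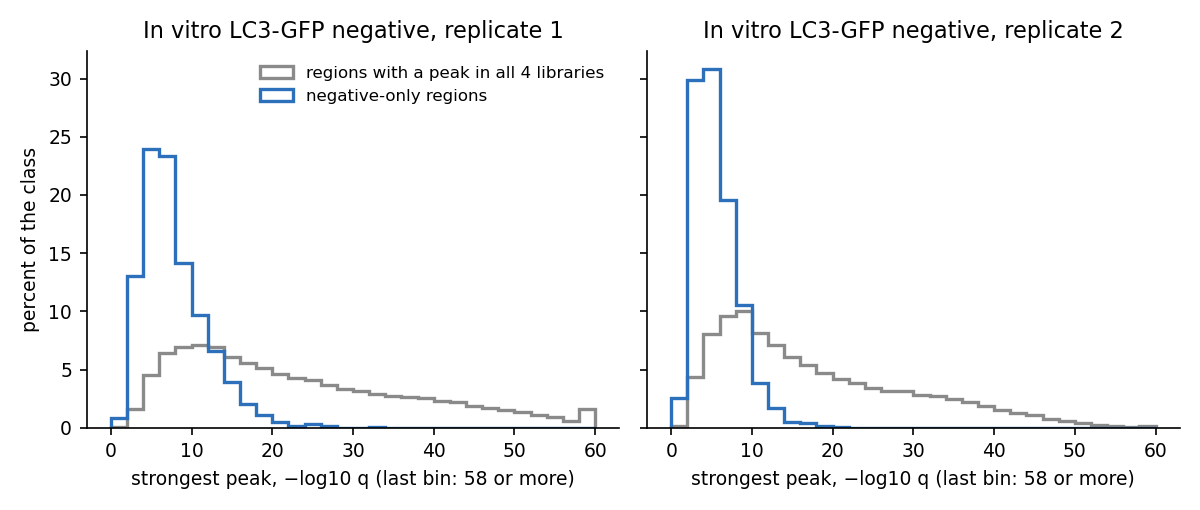
Percent of negative-only regions (blue) and of regions with a peak in all 4 in vitro libraries (grey) by the −log10 q of their strongest peak, in bins of 2, in each LC3-GFP(neg) library. Negative-only regions crowd at low values, with medians of 7.04 and 5.06.

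The edges of the rule were sharp in form and thin in value. Just inside stood regions near Galnt4 (chr10:99115707-99116115), Sdcbp and Mllt3, whose weaker peak had a −log10 q of 1.34, 1.35 and 1.35, close to the lowest deposited value of 1.33 in that library. Just outside stood a region near Mmd (chr11:90254064-90254823), with a −log10 q of 5.28 and 7.17 in the LC3-GFP(neg) libraries and a single LC3-GFP(pos) peak of 1.31, and 2 on chromosome 10 lost to LC3-GFP(pos) peaks of 1.32. Of the 3675 regions lost to 1 LC3-GFP(pos) peak, 2983 were lost to replicate 1, the library with the most peaks, and 692 to replicate 2. With equal numbers of the strongest peaks in every library, 3838 regions met the rule. Without LC3-GFP(neg) replicate 1, LC3-GFP(neg) replicate 2 or LC3-GFP(pos) replicate 1, 3703, 6530 and 5468 regions did, under a rule that fewer libraries had to meet.

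Position along the genome set negative-only regions with distal sites. Only 56 (2.29%) covered a gene start, against 30.5% of regions with a peak in all 4 libraries and 2.49% of positive-only regions. Their median distance to the nearest start was 18642.5 bp, 47.0% lay 10 to 50 kb away and 7.72% over 100 kb away. A gene body held 1444 of them (59.0%), close to the 58.7% of positive-only regions; exons and introns were not used here. Their median length was 669.5 bp, with a range from 371 to 2377 bp, and regions with a peak in all 4 libraries had a median of 1285 bp. Another negative-only region lay within 10 kb of 170 (6.94%), while 15.4% of positive-only regions, which are more numerous, had one of their own kind that close. Chromosome 15 gave the highest share of its regions (142 of 3227, 4.40%) and chromosome 7 the lowest among autosomes (115 of 4363, 2.64%).

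The strongest negative-only region lay at chr14:7097361-7098326, 7.18 kb from Gm3696. Its fold enrichment was 11.0 and 10.1 in LC3-GFP(neg) replicates 1 and 2, at percentiles 99.9 and 99.0 of those libraries' peaks. No in vivo library had a peak there. The next, at chr10:118633307-118634227, lay 76.8 kb from Ifngas1, the antisense RNA beside the interferon gamma gene. It had fold enrichments of 9.65 and 9.73, and in vivo it carried a peak in 3 of 4 LC3-GFP(neg) and 4 of 4 LC3-GFP(pos) libraries. LC3-GFP(neg) replicate 2 was the library without one.

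The other 8 of the 10 strongest had fold enrichments between 7.38 and 9.56. They lay within Dhx32 (an RNA helicase gene) on chromosome 7, near Gm32070 on chromosome 15, 55.5 kb from the translation factor gene Eif4e on chromosome 3, within Clic5 on chromosome 17, within the kinase gene Hunk on chromosome 16, on chromosome 8 at 149.6 kb from the nearest start (Gm32590), within Atrnl1 on chromosome 19 and near 1700061F12Rik on chromosome 2. The Hunk region had a peak in all 8 in vivo libraries. The chromosome 8 region had one in LC3-GFP(neg) replicates 1 and 4 only, and the other 6 had none.

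Fold enrichment and setting moved together. Ranked by the mean percentile of fold enrichment, the lowest of 5 equal groups of negative-only regions (490) had median fold enrichments of 2.54 and 2.64 but median pileups of 39 and 29, the highest of the 5 groups though not above the medians over all peaks (39 and 31), and 94.5% of them lay within 10 kb of a region with a peak in all 4 libraries. In the highest group (490), the fold enrichments were 5.78 and 5.53, the pileups 25 and 17, and 29.6% lay that close. Within 2 kb the shares were 40.0% and 1.43%. Negative-only regions of low fold thus lay closer to shared open regions than those of high fold.

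Negative-only regions were seen again in cells recovered from tumours of both populations. In vivo peaks were not used by the rule. Of the 2448, 1185 (48.4%) had a peak in at least 1 of the 8 in vivo libraries and 1263 in none, where 69.0% of all 73648 regions and 42.1% of positive-only regions had one. A peak in all 8 was found for 76 (3.10%), against 28.3% of all regions and 0.897% of positive-only regions, and in 7 or 8 for 247 (10.1%), against 2.28% of positive-only regions. Both populations contributed a peak at 611 (25.0%; 48.0% of all regions). LC3-GFP(neg) libraries alone did so at 382 (15.6%; 17.7% of all regions). LC3-GFP(pos) libraries alone did so at 192 (7.84%; 3.36% of all regions). Of the 382, 174 rested on LC3-GFP(neg) replicate 2 alone, 7.11% of negative-only regions against 10.5% of all regions. Without that library, 218 of the 2448 regions (8.91%) had a peak in all of the others, where 31.2% of all regions did.

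With all deposited peaks, no difference between the populations transferred was detected in the share of negative-only regions with a peak. It was 27.1%, 16.1%, 22.8% and 20.2% in LC3-GFP(neg) libraries 1 to 4, a mean of 21.6% ± 4.61 (SD, n = 4). In LC3-GFP(pos) libraries it was 15.3%, 25.1%, 26.7% and 27.7%, a mean of 23.7% ± 5.69 (SD, n = 4). The groups overlapped, and their difference of −2.12 percentage points gave p = 0.629 in a two-sided exact permutation test. Without LC3-GFP(neg) replicate 2 the difference was −0.310 points (exact permutation p = 0.971).

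The libraries differed in their number of peaks, and at a fixed number the picture changed. With the 27406 strongest peaks of each, the share was 11.1%, 4.17%, 12.7% and 12.1% in LC3-GFP(neg) and 15.3%, 15.5%, 17.0% and 16.3% in LC3-GFP(pos) libraries. All 4 LC3-GFP(neg) libraries then lay below all 4 LC3-GFP(pos) libraries, with a difference of −5.98 points and an exact permutation p of 0.0286, the smallest that 4 against 4 allows. Without LC3-GFP(neg) replicate 2 it was −4.03 points, again without overlap (exact permutation p = 0.0286, the smallest for 3 against 4). Regions with a peak in all 4 in vitro libraries were at 57.8% ± 5.25 and 58.9% ± 0.389 at the same number (SD, n = 4 each, exact permutation p = 1). Without LC3-GFP(neg) replicate 2, at 49.98%, their order was the reverse of that of negative-only regions. The other 3 LC3-GFP(neg) libraries, at 59.4% to 60.97%, all lay above the LC3-GFP(pos) libraries, a difference of 1.48 points (exact permutation p = 0.0286).

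Set against positive-only regions within a library, negative-only regions had the higher share in 7 of 8 in vivo libraries. The log2 ratio of the shares was 1.497, −1.06, 1.62 and 1.76 in LC3-GFP(neg) libraries 1 to 4, and 2.44, 1.61, 1.72 and 1.69 in LC3-GFP(pos) libraries. Replicate 2 of LC3-GFP(neg) was the exception, with 16.1% of negative-only and 33.6% of positive-only regions. The mean ratio was 0.95 ± 1.34 and 1.87 ± 0.38 (SD, n = 4 each), a difference of −0.91 with an exact permutation p of 0.20. Without replicate 2 the difference was −0.24 (exact permutation p = 0.457). At equal numbers of peaks it was −1.32 (exact permutation p = 0.0286), and −0.40 without replicate 2, with the same p.

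Over the 8 libraries, the share of negative-only regions exceeded that of positive-only regions by a mean of 12.1 percentage points, 22.6% against 10.5% (two-sided exact sign-flip permutation p = 0.0469). Adjusted over the 3 in vivo tests with all libraries, the values were 0.141 for this test, 0.30 for the ratio and 0.629 for the share. None passed 0.05. Tests at equal numbers of peaks or without a library were outside these 3, and their p-values are not adjusted. Without LC3-GFP(neg) replicate 2 the excess was 16.3 points in 7 of 7 libraries (exact permutation p = 0.0156), and leaving out any other library gave an unadjusted p between 0.0781 and 0.0938. Both shares are drawn for each library in the plot of in vivo shares.

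**Figure D2:**
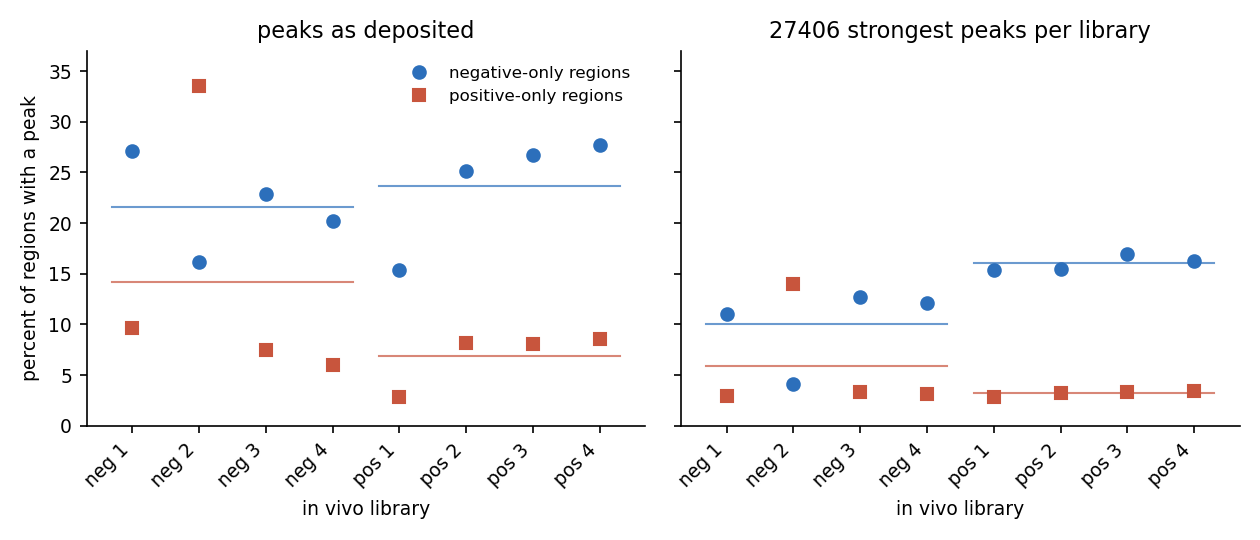
Percent of negative-only (blue circles) and positive-only regions (red squares) with a peak in each of the 8 in vivo libraries (neg and pos, LC3-GFP population transferred, replicates 1 to 4), for all deposited peaks (left) and for the same number of strongest peaks in each (right); lines are group means. Blue lies above red in 7 of 8 libraries, and on the right every pos library has a higher blue value (15.3% to 17.0%) than every neg library (4.17% to 12.7%).

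Few negative-only regions had a peak in every library of 1 population and in none of the other. A peak in all 4 LC3-GFP(neg) and no LC3-GFP(pos) library was found at 7 negative-only regions (0.286%), where 0.944% of all 73648 regions showed that pattern. The reverse, all 4 LC3-GFP(pos) and no LC3-GFP(neg) library, was found at 41 (1.67%), against 0.428% of all regions. Positive-only regions gave 16 (0.271%) and 6 (0.102%). The first count rested on LC3-GFP(neg) replicate 2. Without it, 39 negative-only regions (1.59%) had a peak in the other 3 LC3-GFP(neg) and no LC3-GFP(pos) library. Of all regions, 1.53% did. The reverse pattern was then at 43 (1.76%), against 0.559% of all regions. The first count was 12 without LC3-GFP(neg) replicate 1, 13 without replicate 4 and 11 without LC3-GFP(pos) replicate 3. The reverse count was 71 without LC3-GFP(pos) replicate 1. Leaving out a library can only keep or raise such counts, and for these other omissions the share over all regions was not computed.

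The 7 regions lay within Ocln (chr13:100510952-100511614), whose product is a tight junction protein, within Igf2bp2 (chr16:22097423-22098266), within Rgs3 (chr4:62653564-62654437), within Rab11fip1 (chr8:27171952-27172637), and outside genes on chromosome 17 near Gm52297, on chromosome 2 near Gm34483 and on chromosome 10 at 22.5 kb from Chst11. Their fold enrichments in LC3-GFP(neg) replicate 1 in vitro ran from 2.69 to 6.62. Of these genes, Igf2bp2, an RNA-binding protein, and Rgs3, a regulator of G protein signalling, also passed the RNA test, both higher in LC3-GFP(neg) cells. Positive-only regions lay in both genes too, 1 in Igf2bp2 and 4 in Rgs3. The strongest of the 41 reverse regions, named after its values were seen, lay at chr3:133411351-133412165, 101 kb from Ppa2, with in vitro fold enrichments of 7.84 and 6.37 in LC3-GFP(neg). Of the 41, 13 lay within a gene of the RNA table or up to 2 kb upstream of it.

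Negative-only regions of low in vitro fold enrichment were found more often in vivo. In the lowest of the 5 groups, 61.8% had a peak in at least 1 in vivo library and 43.1% in 3 or more, and in the highest group 41.8% and 22.4%. Each of the 8 libraries had a higher share in the lowest than in the highest group, from 19.4% against 13.7% in LC3-GFP(neg) replicate 2 to 43.7% against 22.0% in LC3-GFP(neg) replicate 1. For positive-only regions the corresponding shares with 3 or more were 12.9% and 6.35%. Their share with at least 1 changed little, at 44.0% in the lowest group, 44.0% in group 4 and 39.8% in the highest. The fall among negative-only regions follows the closeness to shared open regions given above, and the part of that closeness was not tested.

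**Figure D3:**
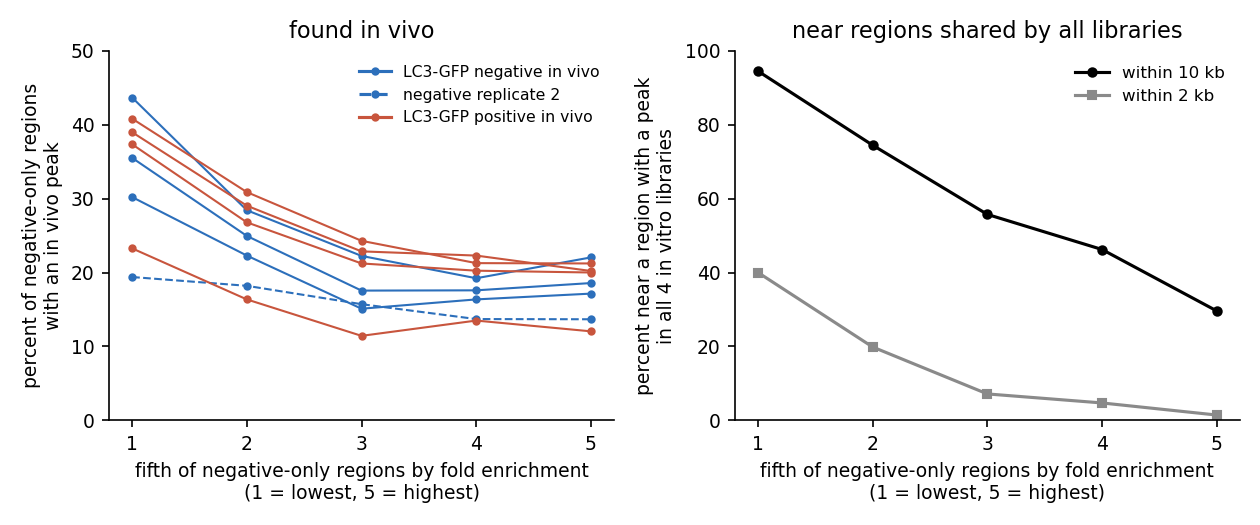
Left, percent of negative-only regions with an in vivo peak in each of 8 libraries (blue, LC3-GFP negative; red, LC3-GFP positive; dashed, LC3-GFP negative replicate 2), by group of in vitro fold enrichment from 1 (lowest) to 5. Right, percent of negative-only regions within 10 kb (black) or 2 kb (grey) of a region with a peak in all 4 in vitro libraries; both panels fall from the lowest to the highest group, the black line from 94.5% to 29.6%.

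RNA of genes with a negative-only region in the gene body or up to 2 kb upstream was called higher in LC3-GFP(neg) cells more often than RNA of all genes. Such genes, taken from the RNA table, numbered 1019, holding 1216 of the regions, and 954 of them were among the 12022 tested with edgeR's quasi-likelihood test (adjusted p under 0.05). Of the 954, 193 (20.2%) were higher in LC3-GFP(neg), where the background was 13.6% of all genes, and 101 (10.6%) were lower, where it was 11.3%. Another 660 were not called. Their median log2 difference was 0.03, with 525 above 0, against −0.0023 for all genes. With DESeq2, 137 (14.4%) were higher against 8.44% of all genes, and 48 (5.03%) lower against 5.97%. Leaving out a library changed these counts, but such fits keep a single library in a population, and their counts are not given here.

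Scaling by library size alone, which shifts the median of all genes to −0.06, changed the split. It called 143 of the genes with a negative-only region higher and 167 lower (46.1% of calls higher), where the main scaling gave 65.6%. Over all genes that split moved from 54.6% to 34.9%.

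Genes with 1, 2, 3 and at least 4 negative-only regions were higher in 19.3% of 791, 22.3% of 130, 30.4% of 23 and 40.0% of 10, the last 2 shares resting on few genes. Genes with a positive-only region were higher in 15.4% and lower in 11.9% of 1885. Sorted by their number of regions with a peak in all 4 libraries, genes with a negative-only region were higher more often than those without where there was 1 such region (17.4% of 184 against 10.6% of 6431), 2 or 3 (18.8% of 255 against 14.3% of 3126), or 8 or more (28.1% of 192 against 23.9% of 184). With 4 to 7 the order turned, at 18.3% of 306 against 23.7% of 919. With no such region the shares were 17.6% of 17 and 12.99% of 408. Of the 1019 genes, 366 also had a positive-only region, and 19.2% of the 349 tested among these were higher.

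**Figure D4:**
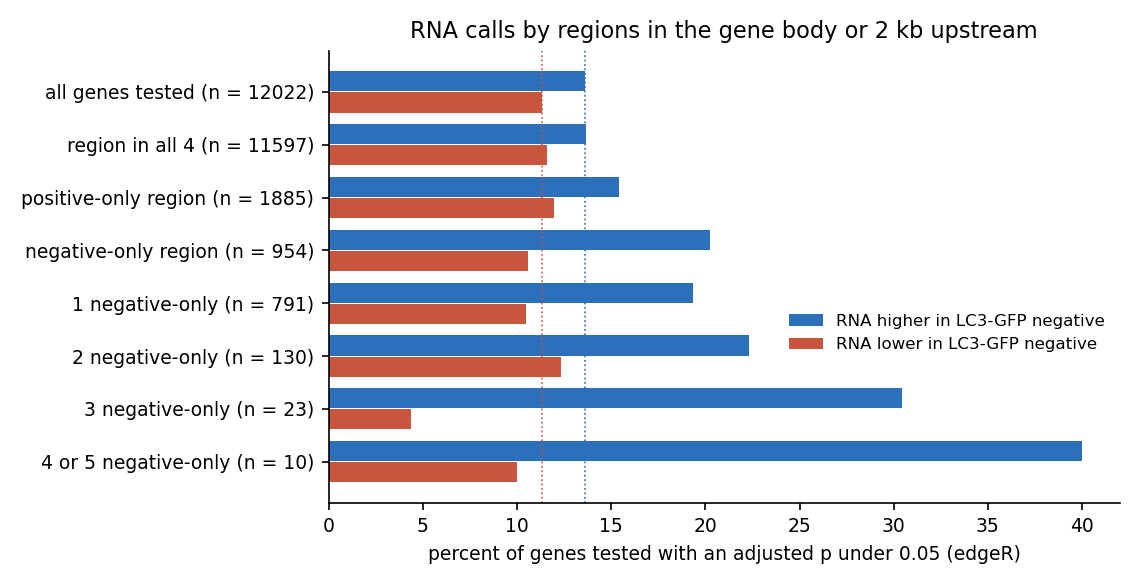
Percent of tested genes with RNA called higher (blue) or lower (red) in LC3-GFP negative cells by edgeR, for all genes and for genes holding each kind of region, with the number of genes tested; dotted lines mark all genes. The blue bar for genes with a negative-only region reaches 20.2% and the red bar 10.6%.

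Close to the start, few genes were called, and all of them in 1 direction. Of 30 tested genes with a negative-only region within 1 kb of their start, 10 were higher in LC3-GFP(neg) and 0 lower. Of all genes tested, 13.6% were higher and 11.3% lower. Of the 65 genes whose start window overlapped a negative-only region, not all of which were tested, 4 passed the test, all of them higher. Each SE given beside a log2 difference comes from the scatter of log2 CPM between the 2 libraries of each population. It is not edgeR's error and is itself imprecise. Dennd2d was at 131 and 140 CPM in LC3-GFP(neg) replicates 1 and 2 against 109 and 118 CPM in LC3-GFP(pos). Its log2 difference was 0.25 ± 0.07 (SE, edgeR adjusted p = 0.00286), and it did not pass without LC3-GFP(pos) replicate 1 (0.20, edgeR adjusted p = 0.0975). Its head-to-head neighbour 2010016I18Rik was at 40.8 and 35.3 against 27.1 and 23.5 CPM, a log2 difference of 0.59 (edgeR adjusted p = 0.000209). These 2 genes share 1 region, which had a peak in all 8 in vivo libraries. Cbarp was at 35.3 and 28.9 against 21.3 and 18.5 CPM, and its region had an in vivo peak in 7 libraries. Gpr146, a G protein-coupled receptor gene, passed narrowly (log2 0.18, edgeR adjusted p = 0.049; DESeq2 adjusted p = 0.184).

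The 12 largest increases among genes with a negative-only region had log2 differences from 1.01 to 1.95. Ifi208, of the IFI200 family of interferon-inducible proteins, was at 15.7 and 10.2 CPM in LC3-GFP(neg) and 3.34 and 3.39 CPM in LC3-GFP(pos). The log2 difference was 1.95 ± 0.30 (SE, edgeR adjusted p = 2.82e-06). Its region (chr1:173678739-173679401), 5.07 kb from the start, had an in vivo peak in 6 libraries. Hs3st3b1, which sulfates heparan sulfate, was at 39.8 and 40.6 against 14.6 and 14.1 CPM, a log2 difference of 1.49 ± 0.03 (SE, edgeR adjusted p = 2.26e-09). Its region, 13.3 kb from the start, had a peak in all 8 in vivo libraries. Adam8, a membrane metalloproteinase, was at 216 and 200 against 102 and 101 CPM, a log2 difference of 1.04 ± 0.06 (SE, edgeR adjusted p = 1.59e-10), and its region lay 1.02 kb from the start. In each of these genes the libraries of the populations did not overlap.

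The kinase gene Lmtk3 was at 44.9 and 42.0 against 18.3 and 19.9 CPM, with its region 0.295 kb from the start. The receptor gene Acvrl1, of the TGF-β superfamily, was at 47.6 and 48.9 against 23.0 and 21.2 CPM. Ceacam16, Phospho1 (a phosphatase with 2 negative-only regions), Oit3, Igf2bp2 and the ephrin receptor gene Ephb2 lay between 3.99 and 10.9 CPM in LC3-GFP(neg) and had log2 differences from 1.01 to 1.88. The noncoding Lncpint and the pseudogene Ppp4r1l-ps passed with edgeR (log2 1.55 and 1.07) and not with DESeq2 (adjusted p = 0.114 and 0.0617).

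The 8 largest decreases on the log2 scale included genes of low level. The most abundant of those described here was Tex15, known from the germ line, at 30.4 and 30.5 CPM in LC3-GFP(neg) against 53.5 and 49.6 CPM, a log2 difference of −0.76 ± 0.05 (SE, edgeR adjusted p = 1.41e-06). The endosulfatase gene Sulf2 was at 8.15 and 7.55 against 13.2 and 16.7 CPM, and Igfbp7, which encodes a secreted IGF-binding protein, at 4.66 and 5.03 against 9.97 and 10.3 CPM. The regions of all 3 had no in vivo peak. Ankrd33b also passed with both tools (log2 −1.43), though not without LC3-GFP(pos) replicate 2 (−1.08, edgeR adjusted p = 0.166). Sox5, Igsf10 and Clic5 passed with edgeR and not with DESeq2 (adjusted p from 0.117 to 0.173). For the transcription factor gene Sox5 the call rested on 3 counts in LC3-GFP(neg) against 25 in LC3-GFP(pos) libraries, a ratio of 7.32 with an exact 95% interval, for counting error only, from 2.23 to 37.9. All of these genes are drawn by library in the plot of CPM by gene.

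**Figure D5:**
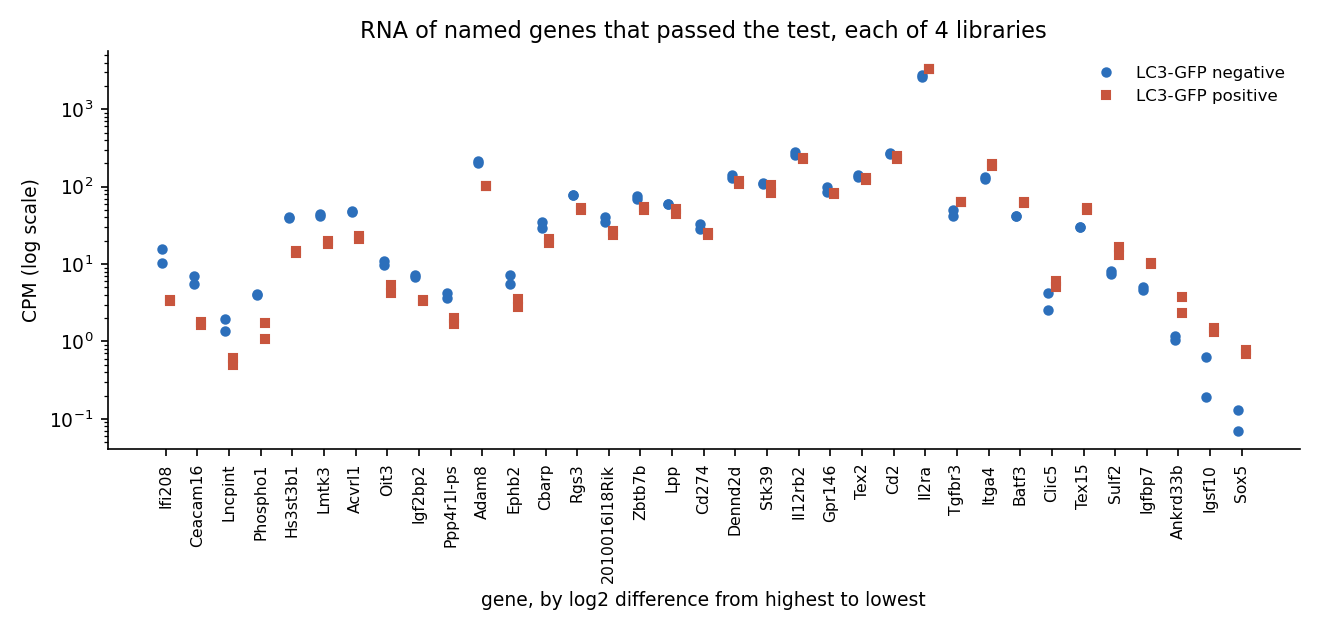
CPM (log axis) of each named gene that passed the test, in 2 LC3-GFP negative (blue circles) and 2 LC3-GFP positive libraries (red squares), ordered by log2 difference. Blue stands above red on the left and below it on the right, with Ifi208 at 15.7 and 10.2 against 3.34 and 3.39 and Tex15 at 30.4 and 30.5 against 53.5 and 49.6.

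The genes with the most negative-only regions differed in what their RNA did. Tgfbr3, the TGF-β co-receptor betaglycan, held 5, and its RNA was lower in LC3-GFP(neg), at 42.0 and 49.6 against 63.2 and 62.5 CPM (log2 −0.46 ± 0.12, SE, edgeR adjusted p = 0.000279). In vivo, 1 of its 5 regions had a peak, in 3 LC3-GFP(pos) libraries. Another 9 genes held 4 each. Rgs3, the regulator of G protein signalling named above, held 4 positive-only regions as well. It had the largest difference of those that passed, at 77.6 and 78.0 against 53.1 and 49.5 CPM (log2 0.60 ± 0.05, SE, edgeR adjusted p = 2.84e-06). Lpp, a LIM domain gene with 9 positive-only regions besides, was higher by 0.32 on the log2 scale (edgeR adjusted p = 0.00371), but did not pass without LC3-GFP(pos) replicate 2 (0.23, edgeR adjusted p = 0.0936). Stk39 and Tex2 passed with edgeR (log2 0.24 and 0.15) and not with DESeq2 (adjusted p = 0.0887 and 0.169). Runx1, a transcription factor of blood cells, gave 8.802 and 6.29 against 6.24 and 7.85 CPM, with overlapping libraries. Atg7, Ssbp3, Pde11a and Zfhx3 were not called either.

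Lists of T cell genes are described by how many of their genes held a negative-only region, where 7.68% of the 13275 genes of the RNA table did. Among 27 genes of T cell activation and cytokine receptors, 6 did: Il2ra, Il12rb2, Cd44, Cd69, Icos and Nfatc1. Il2ra, the alpha chain of the interleukin 2 receptor, was lower in LC3-GFP(neg), at 2637 and 2793 against 3329 and 3327 CPM (log2 −0.29 ± 0.04, SE, edgeR adjusted p = 0.000164). Its region (chr2:11692458-11693600) had an in vivo peak in 2 LC3-GFP(neg) and 3 LC3-GFP(pos) libraries. Il12rb2, of the interleukin 12 receptor, was higher, at 254 and 282 against 232 and 231 CPM (log2 0.21, edgeR adjusted p = 0.00515). Cd44, Cd69, Icos and Nfatc1 were not called. Over the whole list, 11 of 27 tested were higher and 3 lower, with a median log2 of 0.08. Of all genes tested, 13.6% were higher and 11.3% lower.

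Memory and stemness genes gave 4 of 21 (Lef1, Bcl2 with 3 regions, Satb1 and Foxp1), and none was called. Bcl2, which protects from apoptosis, was at 857 and 863 against 849 and 846 CPM. In this list 14 of 21 genes had a negative-only region within 50 kb of the start, Tcf7, Ccr7 and Il7r among them, where 17.7% of the genes of the RNA table had one. Of 20 tested, 3 were higher and 6 lower, against 13.6% and 11.3% of all genes tested. Among 21 AP-1 and IRF factors, Batf3 alone held one, and its RNA was lower, at 42.1 and 41.4 against 62.7 and 60.8 CPM (log2 −0.57, edgeR adjusted p = 1.07e-05).

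Of 18 inhibitory receptor and exhaustion genes, Pdcd1 and Cd274 held a region. The Pdcd1 region (chr1:94047817-94048588), 3.96 kb from the start, had an in vivo peak in LC3-GFP(neg) replicates 1 and 3 only, and its RNA was at 59.93 and 62.1 against 61.6 and 58.3 CPM. Cd274, which encodes PD-L1, was higher with edgeR (log2 0.30, adjusted p = 0.0297) and not with DESeq2 (adjusted p = 0.163).

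Autophagy and mitophagy genes gave 4 of 31. Atg7, the E1-like enzyme of LC3 conjugation, held 4 regions, and its RNA was at 31.0 and 32.4 CPM in LC3-GFP(neg) and 33.0 and 32.0 CPM in LC3-GFP(pos). Atg13, Atg14 and the receptor gene Nbr1 held 1 each. None of the 4 was called, while 8 of all 31 tested were higher and 0 lower. Of 32 hypoxia and glycolysis genes, Pfkfb3 alone held a region and was not called, whereas 20 of the list were higher. Among 28 genes of the integrated stress response and its kinase PERK none held one, nor any of 26 CD8 effector genes, although 7 of the latter, Prf1, Fasl and Ccl5 among them, had one within 50 kb of the start. For effector genes, 11 of 22 tested were higher and 1 lower, and for the stress response 15 of 28 and 1. The calls of these lists stand beside 13.6% higher and 11.3% lower among all genes tested.

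Itga4, the integrin alpha 4 chain, was the only gene of 23 migration and adhesion receptors with a negative-only region. Its RNA was at 126 and 134 CPM in LC3-GFP(neg) against 196 and 186 CPM in LC3-GFP(pos) (log2 −0.56 ± 0.06, SE, edgeR adjusted p = 3.93e-07). Of 19 tested genes of the list, 10 were higher and 1 lower, against 13.6% and 11.3% of all genes tested. Zbtb7b, which encodes the CD4-lineage factor ThPOK, was higher, at 76.2 and 69.5 against 54.2 and 50.2 CPM (log2 0.48, edgeR adjusted p = 6.66e-05). Its region lay 0.167 kb from the start and had no in vivo peak. Cd4 itself was at 0.971 and 0.699 against 4.40 and 3.39 CPM, lower in LC3-GFP(neg) (edgeR adjusted p = 0.000144), and the part of CD4 T cells was not tested. Among CD8 T cell markers, Cd247 and Cd2 held a region, and Cd2 passed with edgeR (log2 0.14, adjusted p = 0.0488) and not with DESeq2 (adjusted p = 0.136). No B cell, myeloid, NK cell, melanoma or stroma marker held one.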

How the data were processed

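RNA-seq (4 libraries), in vitro ATAC-seq (4) and in vivo ATAC-seq (8) of LC3-GFP(neg) and LC3-GFP(pos) T cells were used, grouped by the labels. The authors deposited estimated counts per gene, which need not be whole, and 1 peak list per ATAC-seq library. Each list gives the authors' −log10 q-value of a peak, its fold enrichment (a ratio to local background) and its summit pileup signal, per the file headers. Partek, STAR and DESeq2 for RNA, and cutadapt, BWA and MACS2 with mm10 for ATAC-seq, are named without versions per the submitters' processing notes. Read depth of the ATAC-seq libraries and their duplicate handling are not given in the sources used here.

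Peaks of the 4 in vitro libraries sharing at least 1 bp were merged, and a region counted as found in an in vivo library where at least 1 bp of a peak overlapped it. Coordinates are those of the peak lists, 1-based. Shares of regions were compared over in vivo libraries with two-sided exact permutation tests, and shares within libraries with an exact sign-flip test. Counts were rounded and tested across all genes with edgeR 4.0.16 (quasi-likelihood, TMM scaling, filterByExpr, Benjamini-Hochberg adjustment, R 4.3.3), with DESeq2 1.42.0 as an alternative. Log2 differences are edgeR's, whereas the SE beside them was computed apart, from log2 CPM (with a small constant added) of 2 libraries per population. Of 13275 genes listed, 12022 were tested. A gene held a region that overlapped its body or the 2 kb upstream. Other steps ran in Python 3.11.15, and the merging and the RNA test were tested on simulated data.

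The 10 regions of highest mean fold percentile, the regions found in all 4 in vivo libraries of LC3-GFP(neg) and none of LC3-GFP(pos), the 12 largest increases and 8 largest decreases in RNA, the genes with the most regions (10 with ties) and called genes of the lists are named. A gene that the rule names is not reported here. Genes with a called change at a gene start, the listed genes not called, the miRNAs and the reverse in vivo pattern were added after their values were seen. The regions, gene lists and tests were chosen with earlier results of these data known. Replicate numbers were checked for pairing by the correlation of same-numbered deviations from group means, which was 0.05 for RNA and −0.0872, −0.0427, 0.0367 and 0.00255 for in vivo replicates 1 to 4, so samples were not paired. Alternatives covered scaling, filters, peak strength, peak number, overlap and each library left out. Exons, introns and sequence away from gene starts were not used here.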

Additional observations from a re-analysis of the deposited data

Results flagged for a closer look

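Each of the following values lay farther from the other 3 libraries of its in vivo group than Dixon's 95% critical value for 4 samples allows; chance does this in about 1 of 20 groups. LC3-GFP(neg) replicate 2 had a peak at 33.6% of positive-only regions, and its log2 ratio of negative-only to positive-only share was −1.06, below 0 unlike the other 7 libraries. LC3-GFP(pos) replicate 1, with the fewest peaks, had one at 2.83% of positive-only regions and at 58.3% of regions with a peak in all 4 in vitro libraries, both the lowest of its group, and its log2 ratio was 2.44, the highest.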

How the results depend on the processing

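With the same number of strongest peaks in each library, 3838 regions met the rule in place of 2448. At equal in vivo peaks, the difference between populations was −5.98 points and that of the log2 ratio −1.32 (exact permutation p = 0.0286 each). Leaving out LC3-GFP(neg) replicate 2 as well gave −4.03 points and −0.40. At equal in vivo peaks, the counts of regions found in all libraries of 1 population and none of the other were 0 and 71. The share over all regions was not computed at that number of peaks, so these counts have no background to be read against. Leaving out single libraries gave 3144 to 6530 regions, in vivo differences from −4.92 to −0.310 points, differences in log2 ratio from −1.18 to −0.24, within-library excesses from 11.1 to 16.3 points, counts from 7 to 39 and from 43 to 71, and, for RNA, 127 to 203 genes higher and 51 to 122 lower. Genes lower in LC3-GFP(neg) numbered 167 with library size alone and 48 with DESeq2. Restricting regions to 1 kb around gene starts, which tests fewer genes, left 10 higher and 0 lower. Leaving out a library asks fewer libraries to meet the rule or the in vivo pattern, so counts of such regions largely rise by construction. The cause of the remaining shifts was not tested. Of 36 called genes followed across settings, 22 kept their call under all 9 alternatives, 11 lost it with DESeq2, and none of 323 values changed direction.

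Replicate numbers gave no evidence of pairing. With a replicate block, the in vivo difference stayed at −2.12 points (exact permutation p = 0.75) and that of the log2 ratio at −0.91 (exact permutation p = 0.25). For these, 4 pairs allow no p below 0.125. In the RNA test with that block, 213 genes with a negative-only region were higher and 127 lower. The share of all genes called with the block is not set beside them here. The within-library comparison, the counts of regions found in 1 population and the omission of LC3-GFP(neg) replicate 2 at equal peaks were chosen after seeing the data. Peak presence depends on the read depth of each library, which is unknown, so absence of a peak does not show closed chromatin.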
